A study of Mus musculus with 2 samples.

Results

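Gata3 encodes a zinc-finger transcription factor that binds GATA motifs in DNA. Progenitors in the thymus need it to enter and complete the T cell programme, and it is also required for innate lymphoid cells, among them the type 2 innate lymphoid cells. Its expression in blood cells is known to depend on enhancers far from the gene, and published work places an enhancer active in natural killer and T cells about 280 kb past the 3′ end. E2A and HEB, the proteins removed in this study, are basic helix-loop-helix factors (E proteins) that bind the E-box motif CANNTG. Id proteins hold them in check.

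Described here are the accessible sites (peaks) whose centre lay between 9.20 and 10 Mb of chromosome 2 in the mouse build mm9. This window of 800 kb holds Gata3, at about 9.78 to 9.81 Mb on the minus strand, and 580 kb on its downstream side, towards lower coordinates. The rule for the window used position alone and no measured value, but earlier results of these data were known when the choice was made. The window held 48 of the 85764 peaks in the wild-type list and 49 of the 69896 in the double-knockout list. They made up 68 distinct regions, of which 29 were found in both lists.

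The peaks come from ATAC-seq, which marks open chromatin by transposase insertion, on early thymic progenitors sorted from fetal thymus. These cells were negative for CD4, CD8, lineage markers and CD25, and positive for CD44 and Kit. One library came from wild-type C57BL/6 mice. The other came from mice labelled with the same strain and the genotype E2Afl/flHEBfl/flIL7RCre, called the double knockout here, and its sort also required YFP. The Cre of this driver is expressed from the IL-7 receptor gene, which is switched on in lymphoid progenitors, so deletion is limited to cells that have used that gene. The labels do not state embryonic age, the number of embryos pooled or the extent of the deletion, and the identity of the sorted cells was not checked against marker loci.

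With 1 library per genotype no difference between genotypes could be tested, and every interval below covers counting error over peaks only. The wild-type list held 10 peaks on chromosome Y and the double-knockout list 0, so the sex of the embryos, the YFP gate and the genotype cannot be told apart. Read depth is unknown. Each peak carries the authors' score, whose unit is not given, so a peak is described by its score and by its percentile, the share of its own list that scored lower (ties counted by their middle). Percentiles of lists of different length give an order within each list and do not by themselves show a change of accessibility.

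The promoter of Gata3 is shown because E proteins act through E-boxes and because peaks were found within the gene in both lists. The sequence runs 5′ to 3′ from 250 bases before the annotated start to the base 5 of the transcript, on the minus strand, in RefSeq's GRCm38.p6 at chr2:9878596-9878850. That build differs from the mm9 of the peak files, so these coordinates cannot be set beside those of the peaks, and which peak covers this start was not determined. Capitals mark the E-box.
Gata3 promoter: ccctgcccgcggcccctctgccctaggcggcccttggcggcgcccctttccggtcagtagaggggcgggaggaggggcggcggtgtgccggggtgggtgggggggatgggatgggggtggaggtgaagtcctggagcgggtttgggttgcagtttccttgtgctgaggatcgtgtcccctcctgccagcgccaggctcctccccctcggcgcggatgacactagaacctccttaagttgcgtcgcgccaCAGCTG

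A search of both strands over 300 bases, from 250 before to 50 after the start, found 1 match to CANNTG in the Gata3 promoter. It is the CAGCTG in capitals, whose first base lies at -1 and whose last lies at 5 relative to the start. Among all 32851 promoters of the same length in that table, 72.3% held a CANNTG and 16.3% a CAGCTG, which is itself a form of CANNTG. Neither CACCTG, another form of the E-box, nor the GATA motif AGATAA occurred in this stretch. They were found in 20.2% and 11.2% of all promoters. The 250 bases before the start were 70% G and C.

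The accessible sites at the gene itself were present in both libraries. All 4 peaks inside the rounded limits of the gene overlapped a peak of the other list in each direction, and so did the peak nearest its rounded start. The strongest lay 21.3 kb from the rounded gene end. It scored 38.4 in the wild type (9801193 to 9801343, percentile 94.7) and 42.3 in the double knockout (9801197 to 9801347, percentile 93.1). About 1 kb closer to the gene end, a peak scored 26.6 in the wild type (9800174 to 9800324, percentile 89.5) and 37.8 in the double knockout (9800170 to 9800320, percentile 91.5). These 2 sites differed by 4 bp in the position of their centres between the lists, and both were among the 5 highest-scoring peaks of the window in each.

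The other sites at the gene were weaker but also kept. A peak 13.0 kb from the gene end scored 14.9 in the wild type (9792906 to 9793056, percentile 75.7) and 19.0 in the double knockout (9792967 to 9793117, percentile 78.9). The peak nearest the gene end scored 5.04 (9781907 to 9782057, percentile 26.4) and 7.54 (9781879 to 9782029, percentile 47.4). A further peak lay about 1 kb before the rounded start and scored 22.8 in both lists (9810964 to 9811114, percentile 86.6, and 9810957 to 9811107, percentile 82.8). As the gene limits are rounded to 10 kb, this peak may lie inside or outside the gene. The start itself may lie nearer to another of the peaks named here. Within 10 kb of the rounded gene limits the double knockout had 1 peak that the wild-type list lacked, 9.95 kb past the end (9769971 to 9770121). It had a score of 5.31 at percentile 30.6, and the nearest wild-type peak was 11.9 kb away. With the rounded end, this peak too may lie inside or outside that distance. The sites at Gata3 thus included no wild-type peak without a double-knockout partner, against 39.1% of the whole wild-type list. But 4 of these 5 lay above percentile 75, and such peaks less often stand alone: 22.0% of wild-type peaks between percentiles 70 and 80, 13.4% between 80 and 90 and 6.63% above 90 had no partner. At 5 peaks the exact 95% interval of the shared part, 47.8 to 100%, includes the 60.9% shared in the whole list.

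**Figure D1:**
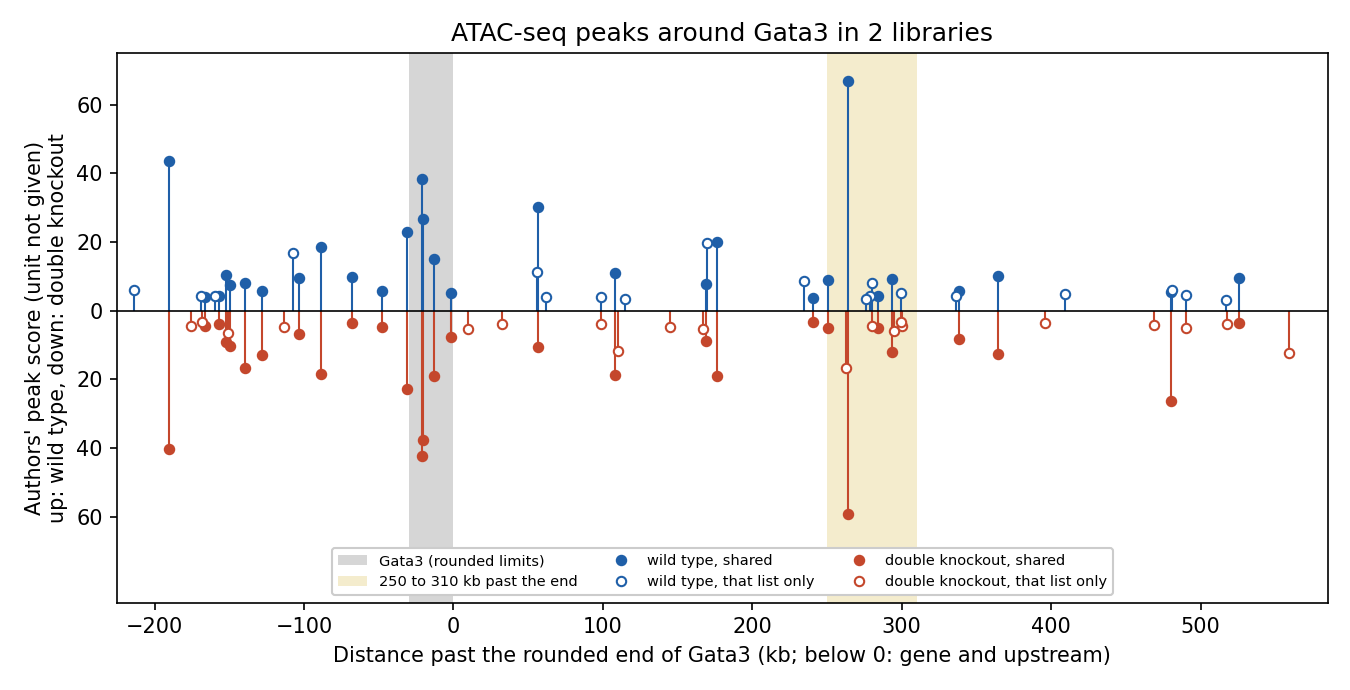
Peaks of the Gata3 window by distance in kb from the rounded end of the gene (x axis, values below 0 are the gene and the side upstream of it) and by the authors' score (y axis, wild type upwards, double knockout downwards). Filled points overlap a peak of the other list and open points do not. The highest point in both lists is the site 264 kb past the gene end, with scores of 66.9 and 59.2.

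Farther away, the single strongest site of the window in both libraries was not at the gene but 264 kb past its end. It scored 66.9 in the wild type (9515633 to 9515783), at percentile 99.2 of the list. In the double knockout it scored 59.2 (9515709 to 9515859), at percentile 97.1. Its centre was 76 bp apart between the lists, more than the median of 12 bp over the 29 shared regions of the window. In the double knockout a second peak followed 1.39 kb from the nearest wild-type peak, on the side of the gene (9517022 to 9517172), with a score of 16.8 at percentile 75.9. The wild-type list had no peak there.

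That site belongs to a dense stretch. Between 250 and 310 kb past the gene end, which takes in the distance of the published enhancer, lay 8 wild-type and 9 double-knockout peaks in 60 kb. This is 13.3 and 15 peaks per 100 kb, against 4.83 and 5 over the whole 580 kb on the downstream side, which includes the stretch. Inside the gene the density was 13.3 per 100 kb in each list, from 4 peaks in 30 kb, a length that rests on rounded limits. Upstream of the start it was 8.42 in each. Of the peaks in the stretch, 4 in each list were shared. In the wild type this is 50% (interval 15.7 to 84.3%), against 60.9% of its whole list. For the double knockout it is 44.4% (13.7 to 78.8%), against 74.7%. Besides the strongest site, they were the peaks 294 kb, 284 kb and 251 kb past the end.

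The peak 294 kb past the end scored 9.09 in the wild type (9486187 to 9486337, percentile 56.4) and 12 in the double knockout (9486226 to 9486376, percentile 66.1). The peak at 284 kb scored 4.38 (9495892 to 9496042, percentile 18.9) and 5.10 (9495833 to 9495983, percentile 28.5). Both stood higher in the order of the double-knockout list. The peak at 251 kb went the other way, with 8.87 in the wild type (9529344 to 9529494, percentile 55.2) and 4.99 in the double knockout (9529328 to 9529478, percentile 27.4).

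The remaining peaks of the stretch were mostly weak and found in 1 list. In the wild type they scored 5.15 at 299 kb (9480543 to 9480693), 8.10 at 280 kb (9499857 to 9500007), 4.27 at 279 kb (9501311 to 9501461) and 3.50 at 276 kb (9503572 to 9503722). In the double knockout, beside the peak of score 16.8 described above, they scored 4.57 at 300.1 kb (9479824 to 9479974), 3.29 at 299.7 kb (9480245 to 9480395), 5.84 at 294.5 kb (9485404 to 9485554) and 4.57 at 280.3 kb (9499585 to 9499735). Of these, the wild-type peaks at 299 and 280 kb had a double-knockout peak with its centre 298 and 272 bp away, close to but not overlapping them. Accessibility does not measure enhancer activity, and whether any of these sites is the published enhancer was not determined.

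**Figure D2:**
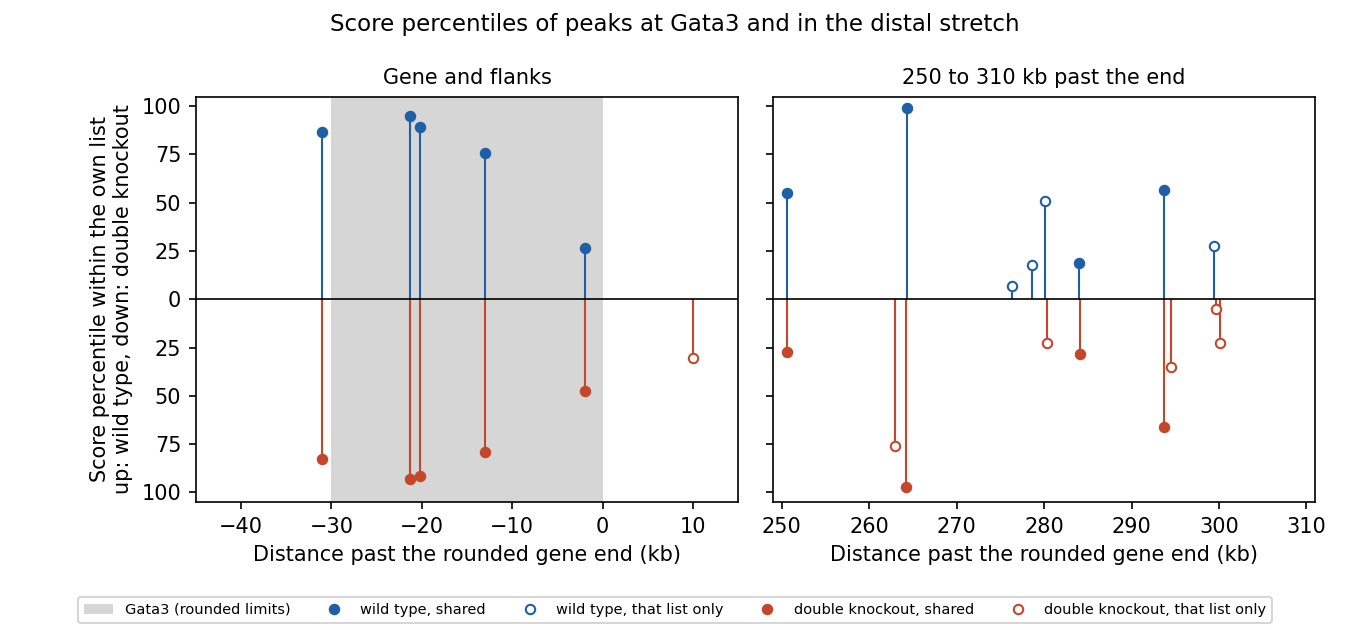
Score percentile of each peak within its own list (y axis, wild type upwards, double knockout downwards) against distance past the rounded gene end in kb, at the gene (left) and in the stretch from 250 to 310 kb (right). Filled points are shared peaks and open points are peaks of that list only. All wild-type peaks at the gene have a filled partner below them, while in the distal stretch 4 of 8 wild-type and 4 of 9 double-knockout peaks do.

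Along the window the peaks were unevenly spread, and in the same way in both lists. Upstream of the gene, 190 kb held 16 peaks in each list. In the order of genes in RefSeq's GRCm38.p6 table, Taf3, a subunit of the general transcription factor TFIID, and then Atp5c1, which encodes a subunit of the mitochondrial ATP synthase, follow Gata3 on this side. On the other side the next protein-coding gene is Celf2, an RNA-binding protein gene. The 580 kb of the downstream side held 28 wild-type and 29 double-knockout peaks. The longest distance between neighbouring peaks was 71.0 kb in the wild type, from 409 to 480 kb past the gene end, and 72.4 kb in the double knockout, from 396 to 469 kb.

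Upstream, 12 of 16 peaks of each list were shared, or 75% (exact 95% interval 47.6 to 92.7%). Downstream, 13 of 28 wild-type peaks, or 46.4% (27.5 to 66.1%), and 13 of 29 double-knockout peaks, or 44.8% (26.5 to 64.3%), were shared. Over the genome, 60.9% of the wild-type list was shared, and 74.7% of the other. The upstream share of the double knockout was thus near that of its list, and the upper bound of its downstream share, 64.3%, lay below it. But the downstream peaks of the double knockout had a median percentile of 30.6, against 41.8 upstream. Over its whole list, 35.9% of peaks at or below percentile 50 had no partner, against 14.7% above it. The 2 sides were not compared with the list at equal percentile. The upstream and downstream intervals overlap, and the difference between the sides was not tested. The shared upstream peaks included the second strongest of the window in the wild type and the third strongest in the double knockout, 160 kb before the start, with scores of 43.7 (9970155 to 9970305, percentile 96.1) and 40.3 (9970154 to 9970304, percentile 92.4). Together with the strongest peak of the gene and the distal site, this region made 3 that ranked above percentile 90 in both lists. Whether this region or other upstream peaks lie at Taf3 was not determined.

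**Figure D3:**
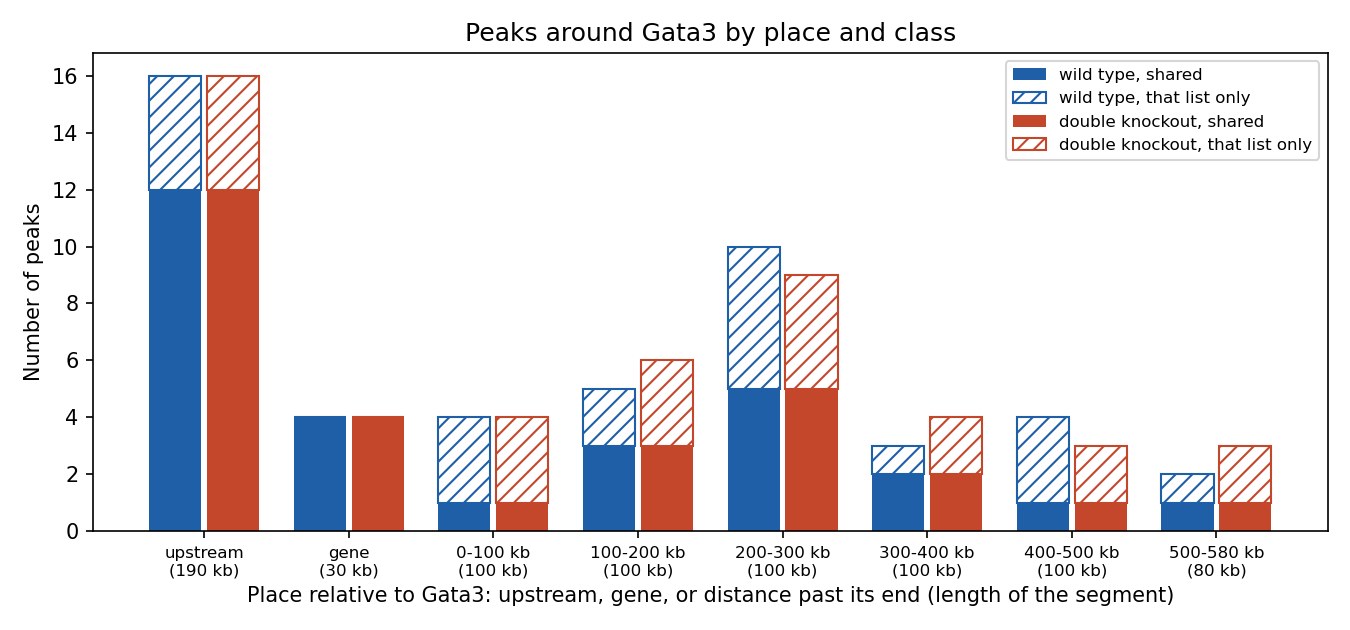
Number of peaks (y axis) upstream of Gata3, inside it, and in steps of 100 kb past its end (x axis, with the length of each segment). Solid bars are shared peaks and hatched bars are peaks of that list only. All 4 peaks inside the gene are solid in both lists, and the segment from 200 to 300 kb past the end holds 10 wild-type and 9 double-knockout peaks.

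Peaks of 1 list only were about as many in each library around Gata3. In the wild type 19 of 48 peaks, or 39.6% (exact 95% interval 25.8 to 54.7%), had no overlapping double-knockout peak, against 39.1% of the whole list. In the double knockout 20 of 49 peaks, or 40.8% (27.0 to 55.8%), had no overlapping wild-type peak, against 25.3% of the whole list. The wild-type share was near its background. The double-knockout share was above it, with a lower bound of 27.0% that treats neighbouring peaks as independent. That bound fell below the whole-list share when only the upper 50% of each list by score was used (36.4%, interval 17.2 to 59.3%, whole list 24.8%) and when the window was shortened by 100 kb on both sides (41.2%, 24.7 to 59.3%).

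Most of these peaks were weak. The median percentile was 20.2 for the wild-type-only and 23.4 for the double-knockout-only peaks of the window, and 28.6 and 30.6 for such peaks over the whole lists. Of the wild-type-only peaks 14 of 19, and of the double-knockout-only peaks 17 of 20, lay at or below percentile 50. A peak of the other list lay within a gap of 500 bp of 5 of the wild-type-only peaks, or 26.3%, and of 5 of the double-knockout-only peaks, or 25%. Over the whole lists this was so for 16.4% and 35.2%.

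The stronger wild-type peaks with no overlapping partner were 5, out of 23 wild-type peaks of the window above percentile 50. This is 21.7%, near the 20.5% of the whole list above that percentile. The strongest lay 170 kb past the gene end (9609915 to 9610065) and scored 19.7, at percentile 83.4. It stood between 2 shared sites, 177 kb and 169 kb past the end, and the nearest double-knockout peak was 1.32 kb away. Of all wild-type peaks between percentiles 80 and 90, 13.4% had no overlapping partner and 5.48% had no double-knockout peak within 1 kb.

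Next came a peak 77.4 kb upstream of the start (9887352 to 9887502), which scored 16.9 at percentile 79.4 and had no double-knockout peak closer than 3.80 kb. Between percentiles 70 and 80, 8.72% of all wild-type peaks had none within 3 kb. A peak 55.7 kb past the end (9724237 to 9724387) scored 11.2 at percentile 65.4. It lay 914 bp from the nearest double-knockout peak. The last 2 were the peak at 280 kb in the distal stretch, at percentile 50.8, and one 234.5 kb past the end (9545426 to 9545576) with a score of 8.54 at percentile 53.3 and no double-knockout peak within 6.09 kb.

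In the double knockout, 3 of 22 peaks of the window above percentile 50 had no overlapping wild-type peak. This is 13.6%, near the 14.7% of the whole list. Among the 27 at or below percentile 50, 17 had none, or 63.0%, against 35.9% of the whole list at or below that percentile. The share of double-knockout-only peaks around Gata3 was thus above the list among weak peaks and near it among stronger ones. Of the 3 above percentile 50 with no overlapping wild-type peak, the highest was the peak of score 16.8 beside the strongest distal site. Another lay 110 kb past the end (9670134 to 9670284), with a score of 11.7 at percentile 65.2 and the nearest wild-type peak 1.44 kb away. The third stood alone 559 kb past the end (9220792 to 9220942), with a score of 12.2 at percentile 66.7 and no wild-type peak within 33.1 kb.

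**Figure D4:**
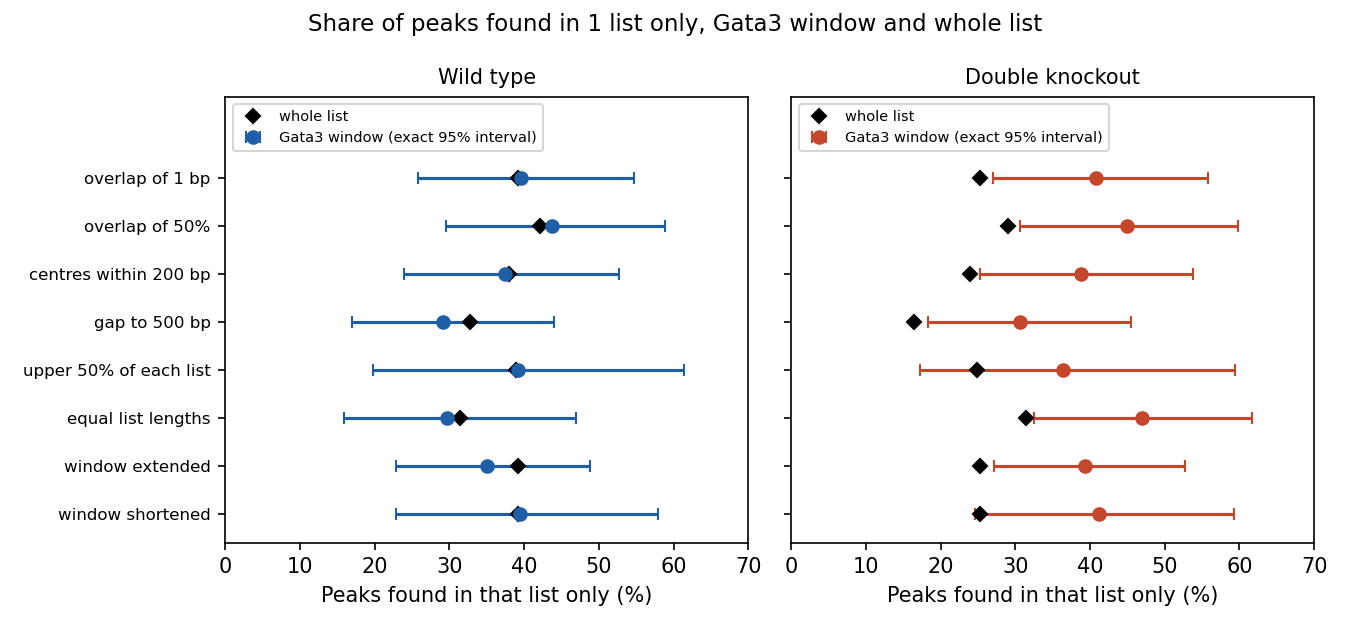
Share of peaks found in 1 list only, in percent (x axis), in the Gata3 window (circles, bars are exact 95% intervals) and in the whole list (diamonds), for each overlap rule, list selection and window extent (rows). The wild-type circles lie near the diamonds. The double-knockout circles lie to the right of them in all 8 rows, and the interval includes the diamond for the selection of the upper 50% of each list and for the shortened window.

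The 29 shared regions were mostly called at the same position. Their centres differed by a median of 12 bp, against 10 bp over all 52206 shared pairs, and in 21 of 29 by at most 20 bp. The order of the 29 by score was similar in the lists, with a Spearman's rho of 0.70 (0.77 over all shared pairs). This rho is a description over sites of the same 2 libraries. The median percentile difference, double knockout minus wild type, was -0.02 (order-statistic 95% interval -3.75 to 9.65), against -2.68 over all shared pairs.

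Most of the leading sites kept a leading place, and 1 of the upper 5 of each list did not. Among the 29, the distal site ranked 1 in both lists. The upstream site and the strongest site of the gene ranked 2 and 3 in the wild type and 3 and 2 in the double knockout. Of the upper 5 in the wild type, the one that was not among the upper 5 in the double knockout was a site 56.6 kb past the gene end. It scored 30.1 in the wild type (9723317 to 9723467, percentile 91.4, rank 4) and 10.7 in the double knockout (9723323 to 9723473, percentile 62.2, rank 15), although the calls lay 6 bp apart. With the peak 55.7 kb past the end described above, this place held 2 peaks above percentile 65 in the wild type and 1 lower one in the double knockout. Over all shared pairs, 10.8% had a fall in percentile at least as large.

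Other shared sites with a lower place in the double knockout were on either side of the gene. A peak 37.9 kb upstream of the start scored 9.86 in the wild type (9847873 to 9848023, percentile 60.1) and 3.72 in the double knockout (9847839 to 9847989, percentile 11.6). A peak 526 kb past the end scored 9.42 (9253889 to 9254039, percentile 58.0) and 3.72 (9253894 to 9254044, percentile 11.6). With the sites 56.6 and 251 kb past the end, these were the 4 of 29 pairs, or 13.8% (interval 3.89 to 31.7%), that stood over 20 points lower. Over all shared pairs the share was 17.8%.

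An equal number, 4 of 29, stood over 20 points higher in the double knockout, against 7.40% of all shared pairs, which lies within the same interval of 3.89 to 31.7%. The largest difference was 480 kb past the gene end, at the one site of the upper 5 in the double knockout that ranked low in the wild type. The site scored 5.37 in the wild type (9299634 to 9299784, percentile 29.7, rank 24 of 29) and 26.2 in the double knockout (9299649 to 9299799, percentile 85.5, rank 5 of 29). Only 0.427% of all shared pairs had a rise at least this large, but the site was named for its difference, so this is a description. In the wild type a separate peak of score 6.02 lay 929 bp from it (9298720 to 9298870).

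The others were upstream and in the gene. A peak 98.0 kb before the start scored 5.59 in the wild type (9907887 to 9908037, percentile 31.8) and 13.0 in the double knockout (9907902 to 9908052, percentile 68.7). One at 109 kb before the start scored 7.99 (9919250 to 9919400, percentile 50.2) and 16.8 (9919364 to 9919514, percentile 75.9). Its calls were 114 bp apart, the most of any shared pair in the window, and overlapped in part only. The last was the weak peak nearest the gene end, described above.

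**Figure D5:**
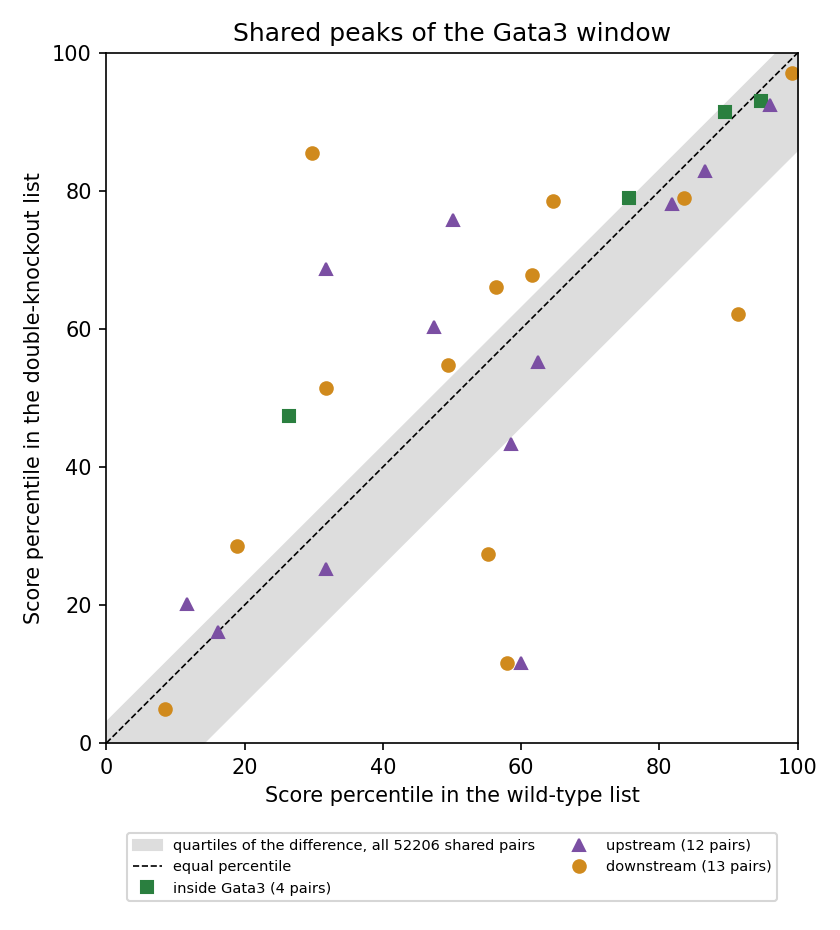
Score percentile in the wild-type list (x axis) and in the double-knockout list (y axis) of the 29 shared peaks of the window, by place. The dashed line marks equal percentiles and the grey band the quartiles of the difference over all 52206 shared pairs, -13.9 and 3.13. The 3 points above percentile 90 in both lists lie near the line, while the point at 91.4 in the wild type lies at 62.2 in the double knockout. The farthest points are at 29.7 and 85.5 above the line and at 60.1 and 11.6 below it.

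Joining peaks of either list whose centres were up to 10 kb apart gave 28 groups. Of these, 20 held peaks of both lists. Wild-type peaks alone made up 2 groups, or 7.14% (exact 95% interval 0.877 to 23.5%), against 21.8% of the 47460 groups of the whole lists. Double-knockout peaks alone made up 6, or 21.4% (8.30 to 41.0%), against 6.06%. Each of these 8 groups was a single peak, and 1 of the wild-type ones, at the upper edge, had a double-knockout peak 8.11 kb away beyond the window. At this edge the window ended close to a strong site. The last wild-type peak inside it at the upper edge scored 6.02 (9993509 to 9993659), and the first outside scored 62.0 (10002102 to 10002252). In the double knockout the first peak outside scored 17.3 (10001620 to 10001770), but it overlapped no wild-type peak and is a different site. The wild-type peak of score 62.0 overlapped another double-knockout peak, whose score is not given here. At the lower edge, the first wild-type peak inside scored 9.42 and the nearest outside 6.02 (9102157 to 9102307), while in the double knockout these were 12.2 and 3.08 (9122287 to 9122437).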

How the data were processed

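The data are 2 deposited peak lists, 1 for each library, called separately by the authors. Each gives chromosome, start, end, name and the authors' score, in a column with no header and no stated unit. The submitters' processing notes name bcl2fastq 1.8.4, Bowtie, HOMER and mm9. Settings, duplicate handling, a background library, the peak threshold and any shift of read ends are not given in these sources, and each could add or remove weak peaks. Nearly all peaks are 151 bp wide, so 1 broad open region can be marked at different places.

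Peaks were grouped by the genotype in the labels. Sharing meant an overlap of at least 1 bp between peaks of both lists. Shares carry exact Clopper-Pearson 95% intervals and medians order-statistic 95% intervals. The gene limits, and distances from them, rest on values rounded to 10 kb. No mm9 gene table or genome was used, so peaks carry no exon or intron and no sequence. E-box and GATA motifs were sought in the RefSeq promoter only.

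Named individually were peaks within 10 kb of the gene, peaks 250 to 310 kb past its end, the 5 highest of each list, peaks of 1 list above percentile 50, and the 3 shared pairs with the largest percentile difference in each direction. Others are named as neighbours of these or to complete a count of 5 or fewer, and were chosen after their values were seen. The members and lists were chosen with earlier results of these data known. The limit of 20 percentile points and the steps of 10 points were set after the values were seen, and the groups of neighbouring peaks were then also counted over the whole lists. The overlap step was checked on simulated copies of wild-type peaks, shifted by less than the width of a peak. Each copy was thus bound to overlap its original, so the check covers the computation and not pairs with larger shifts. Python 3.11.15, NumPy 2.4.6, SciPy 1.17.1, pandas 2.3.3 and matplotlib 3.10.9 were used.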

Additional observations from a re-analysis of the deposited data

How the results depend on the processing

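No paired analysis was possible because each genotype had a single library, and no library could be left out. Of 63 values under the alternatives for 9 results, 61 stayed within the interval of the reported value or within 1.5 times of a count. The other 2 follow from shortening the lists: in the upper 50% of each list the window held 23 wild-type and 22 double-knockout peaks. Overlap rules do not change which peaks lie in the window, so its counts of 48 and 49 could not move under them. The limits are also wide: 33 wild-type peaks in the shortened window still fell within 1.5 times of 48. Shares of double-knockout-only peaks ranged from 30.6% with a tolerance of 500 bp (whole list 16.4%) to 46.9% at equal list lengths (whole list 31.5%). The median percentile difference of shared pairs changed sign with the setting, from -2.15 in the extended window to 6.61 at equal list lengths, and no direction is read from it. Unknown depth limits what can be said of weak peaks.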

Other observations

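The number of peaks around Gata3 was as high in the double knockout as in the wild type although its list is shorter. The window held 1.02 double-knockout peaks per wild-type peak, against 0.815 over the whole lists. Among 1505 consecutive 800 kb windows of the genome with at least 20 peaks in each list, the median was 0.845 (quartiles 0.758 and 0.930), and 149 windows, or 9.90%, had a ratio as high. Counted separately, the share of double-knockout-only peaks reached the 40.8% found around Gata3 in 76 of the 1505 windows, or 5.05%. With the wild-type list cut by score to the length of the other, the window held 37 wild-type peaks against 49. The window is also denser in peaks than most: 20.1% of the 800 kb windows with a wild-type peak held 48 or more, and 11.7% of those with a double-knockout peak held 49 or more. These shares describe the 2 libraries and are no test of the genotypes. This count over windows was added after the data were seen.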
